A study of Mus musculus with 9 samples.

Results

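The transcripts described here are those of the stress kinase cascade that runs from dual leucine zipper kinase (DLK) to the c-Jun N-terminal kinases (JNK), measured in mouse dorsal root ganglia (DRG) with and without sciatic nerve injury. Its 10 genes were chosen by name: the MAP3Ks Map3k12 (DLK) and Map3k13 (leucine zipper kinase, LZK), the MAP2Ks Map2k4 (MKK4) and Map2k7 (MKK7), the JNKs Mapk8 (JNK1), Mapk9 (JNK2) and Mapk10 (JNK3), and the scaffolds Mapk8ip1, Mapk8ip2 and Mapk8ip3 (JIP1, JIP2 and JIP3). All 10 were among the 20898 genes tested. They were read by 28 of 41174 probes, of which 25 passed the filter on dim signal.

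The samples were L3/L4 DRG of adult mice carrying wild-type Jun and no Cre (jun.wt and cre.neg in the labels), a genotype that both groups shared. There were 5 injured samples, labelled lesion, and 4 uninjured samples. The labels and methods give 3 days after sciatic nerve transection, the source label of the uninjured samples carries the same words, and the study's results text names another time. No label identifies an animal, so p-values measure the spread between these samples, which may be technical in part. The study's methods name contralateral uninjured DRG as controls for nerve crush and uncrushed DRG as controls for the arrays. Uninjured samples may thus come from injured animals. Any such pairing could not be used, and the groups were compared as independent. Each sample was hybridised in Cy5 against a universal mouse reference RNA in Cy3, without dye swap, and its value is the log2 ratio of sample over reference. A value of 1 thus means that the probe was 2-fold brighter in the DRG than in the reference. Ratios of different probes are not compared as levels.

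In this cascade, an upstream MAP3K phosphorylates a MAP2K, which phosphorylates JNK, which in turn phosphorylates c-Jun and other proteins. DLK and LZK are related kinases of the mixed-lineage family. DLK is best known as the neuronal sensor that carries an axon injury signal back to the cell body, where it can lead to regeneration or to death. The cascade is controlled largely by phosphorylation and by turnover of the DLK protein, neither of which is measured by mRNA.

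The 9 arrays lay on 3 slides, with uninjured 2, 3 and 4 on the first, uninjured 1 with injured 1, 2 and 5 on the second, and injured 3 and 4 on the third. Slide and injury therefore overlapped in large part, and a fit with slide as a block rests on uninjured 1 against the 3 injured arrays beside it. The median Cy5 signal ranged from 156 to 238 and was lowest on injured 5. All 11 neuron markers were above background on all 9 arrays. So were all satellite glia, Schwann cell, muscle, red blood cell, fibroblast and endothelium markers, so detection alone cannot bear out the DRG label. The neuron marker mean, relative to the uninjured mean, spanned -0.11 to 0.09 on uninjured arrays and -0.31 to 0.21 on injured arrays. Of the neuron markers, 0 were called higher and 2 lower. The mean of 9 macrophage markers spanned -0.40 to 0.35 on uninjured and 0.10 to 1.06 on injured arrays, with 3 called higher. Of 4 satellite glia markers, 2 were called higher. Muscle markers (5 genes, 0 called) stood at 2.34 on injured 2 and 3.93 on injured 4 against -0.06 to 0.61 on the other 7 arrays. The mean of 3 red blood cell markers reached 1.19 on injured 2 and 1.22 on injured 5, against -0.17 to 0.23 on uninjured arrays. The part of these cell types in the results below was not tested. In whole ganglia, fewer cells of a type and less RNA per cell cannot be told apart.

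Injury was accompanied by small changes at some steps of the cascade. Transcripts of Map3k12, Map2k4 and Mapk9 fell to about 0.8 of their uninjured level and Mapk8 rose to 1.20 of it, while the scaffolds, Map2k7 and the brightest probes of Map3k13 and Mapk10 did not pass the test. Thus 4 of 10 genes were called at an adjusted p under 0.05 (limma, Benjamini-Hochberg over all genes), 1 higher and 3 lower. Over all genes, 25.3% were called, 11.4% higher and 13.9% lower, so that a count of 4 of 10 is close to that of the tissue as a whole. The same 4 genes had groups of arrays that did not overlap, against 23.8% of all genes. None of the 10 passed with slide as a fixed block, in which 5.67% of all genes were called, or with median centring in place of loess, and Map2k4 was the only one that passed without injured 2 and 4. In the reference channel alone, which holds the same RNA on every array, 0 of 10 genes and 0.167% of all genes were called.

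**Figure D1:**
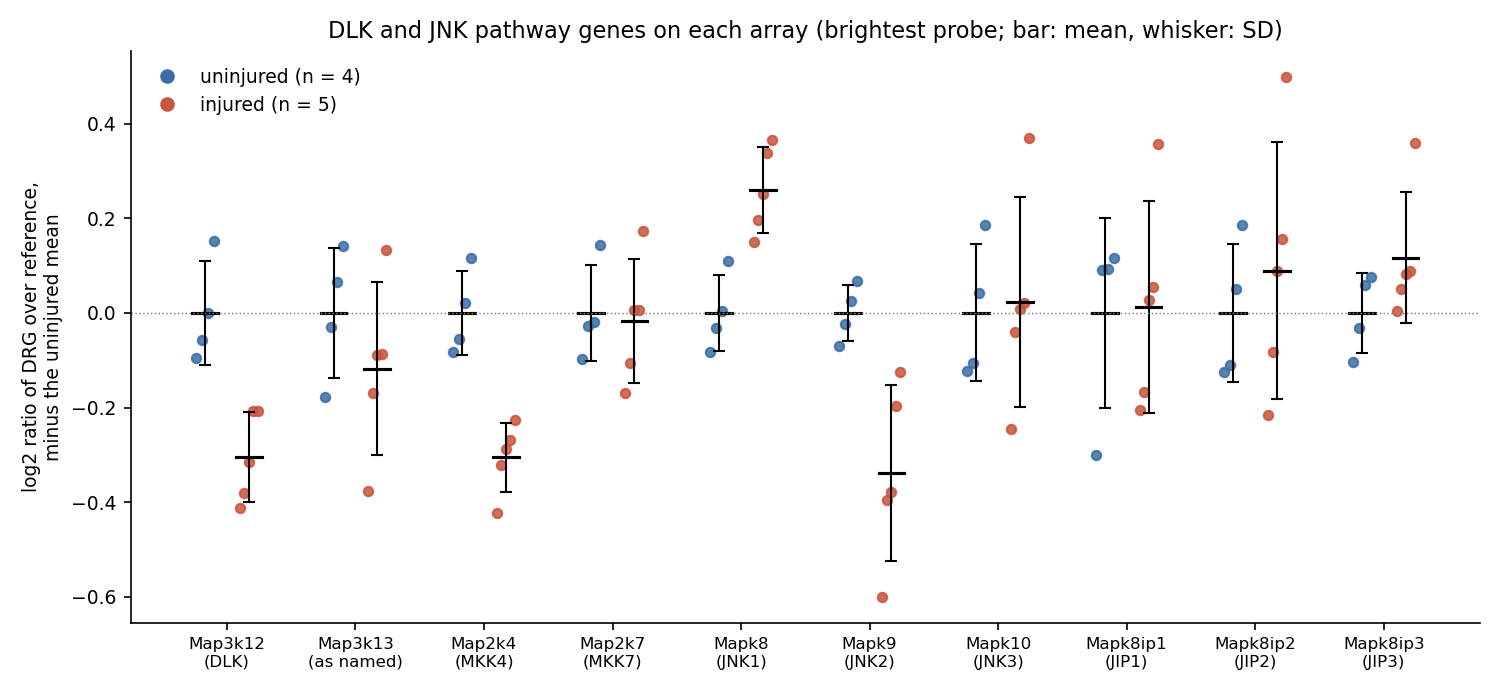
Log2 ratio of DRG over reference for the brightest probe of each of the 10 genes, drawn as the difference from that gene's uninjured mean. Each point is 1 array (blue, 4 uninjured; red, 5 injured), with the group mean and SD. The groups are apart for Map3k12, Map2k4 and Mapk9, where injured arrays are lower, and for Mapk8, where they are higher.

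To give the sequence context of the genes that moved, promoter sequences (300 bases around a transcription start, most of them upstream; RefSeq, GRCm38.p6) were searched for the binding letters of c-Jun and its partners. The table holds 14 promoters for 9 of the 10 genes. The AP-1 letters TGACTCA or TGAGTCA, bound by c-Jun with Fos proteins, were found on either strand in 0 of the 14 and in 5.2% of all 32851 promoters. The full cAMP response element TGACGTCA, which c-Jun can bind with ATF proteins, was found in 1, the upstream promoter of Mapk10, and in 1.79% of all promoters. Its core TGACG, which the full element contains on both strands, was found in 6 of the 14, and in 20.8% of all promoters. The following 5 promoters of Map3k12, Map2k4, Mapk8, Mapk9 and Mapk10 hold it and are shown 5′ to 3′ on the gene's strand, with TGACG or its reverse complement CGTCA in capitals.
Map3k12, chr15:102510651-102510950, minus strand: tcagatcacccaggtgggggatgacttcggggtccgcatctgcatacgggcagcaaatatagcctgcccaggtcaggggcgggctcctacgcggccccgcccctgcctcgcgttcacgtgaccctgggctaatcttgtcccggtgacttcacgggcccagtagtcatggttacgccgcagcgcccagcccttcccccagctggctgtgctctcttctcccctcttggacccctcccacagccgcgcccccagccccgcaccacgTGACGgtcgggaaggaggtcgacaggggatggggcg
Map2k4, chr11:65788310-65788609, minus strand: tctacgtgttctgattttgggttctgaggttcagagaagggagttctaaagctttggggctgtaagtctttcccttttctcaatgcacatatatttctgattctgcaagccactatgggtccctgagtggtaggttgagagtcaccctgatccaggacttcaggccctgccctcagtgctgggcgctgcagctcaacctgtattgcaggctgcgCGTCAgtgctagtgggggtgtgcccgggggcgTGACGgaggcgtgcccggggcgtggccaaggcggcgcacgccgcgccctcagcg
Mapk8, chr14:33447109-33447408, minus strand: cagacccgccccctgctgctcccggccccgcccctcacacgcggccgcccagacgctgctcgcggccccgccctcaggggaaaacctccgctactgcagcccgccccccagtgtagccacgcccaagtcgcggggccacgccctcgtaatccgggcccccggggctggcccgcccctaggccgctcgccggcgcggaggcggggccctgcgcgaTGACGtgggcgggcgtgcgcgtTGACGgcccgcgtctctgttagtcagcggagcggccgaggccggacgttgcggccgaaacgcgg
Mapk9, chr11:49846501-49846800, plus strand: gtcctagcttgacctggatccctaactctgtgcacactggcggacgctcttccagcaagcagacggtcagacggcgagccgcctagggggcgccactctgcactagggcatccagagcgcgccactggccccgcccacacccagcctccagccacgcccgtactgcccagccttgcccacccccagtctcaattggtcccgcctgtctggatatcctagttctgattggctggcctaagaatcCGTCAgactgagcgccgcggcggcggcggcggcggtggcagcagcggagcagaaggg
Mapk10, chr5:103211285-103211584, minus strand: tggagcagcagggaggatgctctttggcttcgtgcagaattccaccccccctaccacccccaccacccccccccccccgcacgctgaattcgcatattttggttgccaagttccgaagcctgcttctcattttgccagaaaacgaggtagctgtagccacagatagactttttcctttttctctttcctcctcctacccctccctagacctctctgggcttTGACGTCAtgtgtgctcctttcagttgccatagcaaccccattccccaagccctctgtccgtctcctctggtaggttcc
The capitals thus occur in promoters of the 3 genes called lower, in that of Mapk8, which was called higher, and in that of Mapk10. The promoter of the scaffold Mapk8ip3, which was not called, also holds the core, in 2 places, and is not shown. The other promoters listed for Map3k12, Map2k4, Mapk8 and Mapk10 hold none, nor do those of Map3k13, Map2k7 and Mapk8ip2. The GC box GGGCGG was found on either strand in 7 of the 14 promoters and in 35.7% of all. The median GC content was 58.5% in the 14 promoters and 52.7% in all, and it reached 77.7% in the Mapk8 promoter shown. These matches are letters in a window and were not tested as binding sites.

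Of the MAP3Ks, DLK was read by 3 probes, and as ratios all 3 were lower in every injured than in every uninjured array. The brightest Map3k12 probe (chromosome 15, 102485614 to 102485673, minus strand, on build mm7) had log2 ratios of 1.72, 1.93, 1.69 and 1.78 on uninjured 1 to 4 and of 1.57, 1.40, 1.47, 1.37 and 1.57 on injured 1 to 5. No injured array reached the lowest uninjured one. The mean was 1.78 ± 0.109 (SD, n = 4) without and 1.48 ± 0.0952 (SD, n = 5) with injury, a log2 difference of -0.30 ± 0.0721 (SE) or 0.810-fold (limma adjusted p = 0.0109; two-sided exact permutation p = 0.007937, the smallest that the 126 splits allow). The other Map3k12 probes, which were dimmer, differed by -0.21 (adjusted p = 0.0341 over all probes) and by -0.17 (adjusted p = 0.0806), again with no overlap between groups. With slide as a block the brightest probe differed by -0.21 ± 0.132 (limma adjusted p = 0.411). Without injured 2 and 4 it differed by -0.24 (adjusted p = 0.0854). In Cy5 alone the dimmer probes differed by -0.18 (limma adjusted p = 0.143) and -0.23 (adjusted p = 0.0890), with overlapping groups. As a ratio the DLK transcript was therefore lower on all 3 probes, by an amount that the arrays of 1 slide alone do not separate from their spread.

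By its clone name, only 1 of the probes named Map3k13 was tied to LZK itself. The files name 3 probes Map3k13, but 2 of them, including the brightest, carry RIKEN clone names (1500026P21 and 1300002E11) that RefSeq lists under 1300002E11Rik, a long non-coding RNA that is the neighbour of Map3k13 on the chromosome. A_51_P267949, which carries 1300002E11, also carries the clone name 6030442D07, for which no gene was found in RefSeq. The third carries the clone C130026N12, which RefSeq lists as an older name of Map3k13 itself. Probe sequences were not available, so which transcript each probe reads was not tested. The C130026N12 probe, A_51_P306160 (chromosome 16, 21579610 to 21579669, plus strand, mm7), had log2 ratios of 0.79, 0.96, 0.79 and 0.85 on uninjured 1 to 4. On injured 1 to 5 it had 0.45, 0.30, 0.50, 0.49 and 0.46, all below the lowest uninjured array. The mean was 0.85 ± 0.0823 (SD, n = 4) without and 0.44 ± 0.0828 (SD, n = 5) with injury, a log2 difference of -0.41 (limma adjusted p = 0.00127 over all probes), and in Cy5 alone it differed by -0.46 ± 0.0885 (adjusted p = 0.00402). With slide as a block the difference was -0.38 ± 0.118 (adjusted p = 0.110).

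The probes that carry the non-coding RNA's clone names did not pass the test. The brightest, A_52_P560628, differed by -0.12 ± 0.102 (limma adjusted p = 0.447) with overlapping groups, and A_51_P267949 by -0.02 (adjusted p = 0.877 over all probes). The gene-level value under the name Map3k13 rests on the first of these. When probes whose clone RefSeq lists under another gene were left out, Map3k13 differed by -0.41 (limma adjusted p = 0.00112). The count was then 5 of 10 genes, 1 higher and 4 lower. Over all genes, 5255 of 20778 were called in that setting, 45.2% of them higher. This naming check was added after the data were seen. Of all probes, 2703 carried a clone name that RefSeq lists, and for 205 it was under another gene, among which those 2 were the only ones of the genes described here.

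At the MAP2K step the change was in MKK4 and not detectable in MKK7. Map2k4 had 1 probe (chromosome 11, 65770051 to 65770110, minus strand, mm7), with log2 ratios of 2.01, 1.93, 1.91 and 2.11 on uninjured 1 to 4 and of 1.76, 1.57, 1.67, 1.72 and 1.70 on injured 1 to 5. Every injured array was below every uninjured one. Its mean was 1.99 ± 0.0892 (SD, n = 4) without and 1.68 ± 0.0737 (SD, n = 5) with injury, a difference of -0.31 ± 0.0638 (SE) or 0.809-fold (limma adjusted p = 0.00561; exact permutation p = 0.007937). The difference was of like size within the slide that holds both groups, -0.33 ± 0.125 (adjusted p = 0.171 with slide as a block). Without injured 2 and 4 it was -0.28 (adjusted p = 0.0416).

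MKK7, the other kinase that phosphorylates JNK, had 4 probes, 3 of which passed the filter. The brightest (chromosome 8, 4211588 to 4211647, plus strand, mm7) ranged from -0.09 to 0.15 on uninjured and from -0.16 to 0.18 on injured arrays, so that the groups overlapped throughout. Map2k7 differed by -0.02 ± 0.0799 (SE; limma adjusted p = 0.905), with a 95% interval of -0.19 to 0.16. The dimmer probes differed by 0.04 and 0.11, and the fourth was above background on 0 arrays. The change of Map2k4 was lower than that of Map2k7 by -0.29 (95% interval -0.53 to -0.05; exact permutation p = 0.0397, adjusted p = 0.159 over the 8 pairs of related genes compared), so a difference between the 2 MAP2Ks did not pass the adjusted test.

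Among the JNKs, JNK1 and JNK2 moved in opposite directions on their brightest probes. Mapk8, the broadly expressed JNK1, was read at chromosome 14, 30821327 to 30821386 (minus strand, mm7), with log2 ratios of 0.45, 0.49, 0.60 and 0.40 on uninjured 1 to 4 and of 0.64, 0.82, 0.85, 0.68 and 0.74 on injured 1 to 5. All injured arrays lay above all uninjured ones. Means were 0.49 ± 0.0811 (SD, n = 4) without and 0.75 ± 0.0912 (SD, n = 5) with injury, a difference of 0.26 ± 0.0663 (SE) or 1.20-fold (limma adjusted p = 0.0155; exact permutation p = 0.007937). The rise was on 1 of the 4 Mapk8 probes that passed the filter. The other 3 differed by 0.19 (adjusted p = 0.196), 0.05 (adjusted p = 0.745) and -0.09 (adjusted p = 0.514), and the average of the probes by 0.10 (limma adjusted p = 0.232).

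Mapk9, or JNK2, had log2 ratios of 2.36, 2.45, 2.41 and 2.32 on uninjured 1 to 4 for its brightest probe (chromosome 11, 49842329 to 49842388, plus strand, mm7). On injured 1 to 5 they were 2.26, 2.19, 1.99, 2.01 and 1.79, just below the uninjured range on injured 1 and furthest below on injured 5. Means were 2.39 ± 0.0597 (SD, n = 4) without and 2.05 ± 0.186 (SD, n = 5) with injury, a difference of -0.34 ± 0.0923 (SE) or 0.791-fold (limma adjusted p = 0.0214; exact permutation p = 0.01587). It lost the call without uninjured 2 (adjusted p = 0.0561) or uninjured 3 (adjusted p = 0.0569). The other Mapk9 probes differed by -0.17 (adjusted p = 0.181) and -0.10 (adjusted p = 0.456) with overlapping groups, and the average of the probes by -0.20 (limma adjusted p = 0.0953).

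Set against each other on the same array, Mapk8 minus Mapk9 rose by 0.60 (95% interval 0.33 to 0.87) without overlap between the groups, the widest gap among the 8 pairs (exact permutation p = 0.01587, adjusted p = 0.127 over the pairs). With each gene's probes averaged the gap was 0.31 (exact permutation, adjusted p = 0.0635 over the pairs). None of the 8 pairs passed after adjustment, whereas in Cy5 alone 3 did: Map2k4 against Map2k7 at -0.33, Mapk8 against Mapk10 at 0.51 and Mapk8 against Mapk9 at 0.46.

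JNK3, the isoform found mainly in the nervous system, gave readings that depended on the probe and on the reference. Its brightest Mapk10 probe (A_51_P433989; chromosome 5, 102100899 to 102100958, minus strand, mm7) had log2 ratios of 4.07, 3.93, 3.91 and 4.22 on uninjured 1 to 4 and of 3.79, 4.04, 3.99, 4.05 and 4.40 on injured 1 to 5. The groups overlapped, with injured 5 the highest and injured 1 the lowest of all 9 arrays. The difference was 0.02 ± 0.115 (SE; limma adjusted p = 0.912), with a 95% interval of -0.23 to 0.28.

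Both other Mapk10 probes that passed the filter were lower after injury. A_52_P21400 (chromosome 5, 102096943 to 102097002, minus strand, mm7), which the files tie to Mapk10 through its RefSeq transcript, had log2 ratios of 5.49, 5.05, 5.23 and 5.33 on uninjured 1 to 4 and of 4.97, 5.09, 4.61, 4.78 and 4.86 on injured 1 to 5. Injured 2 lay above uninjured 2 and the other injured arrays lay below all uninjured ones. The difference was -0.42 (limma adjusted p = 0.0203 over all probes). A_52_P537438 differed by -0.24 (adjusted p = 0.0296), also with 1 injured array inside the uninjured range. Neither of these probes had Cy3 above background on any array, so that their ratios were taken over a background-level reference, whereas the brightest probe had Cy3 above background on all 9.

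In Cy5 alone, scaled between arrays by quantiles, the 3 Mapk10 probes gave one direction. They differed by -0.32 ± 0.0793 (limma adjusted p = 0.0153), -0.34 ± 0.0683 (adjusted p = 0.00521) and -0.27 ± 0.0770 (adjusted p = 0.0270), each with every injured array below every uninjured one. The reference channel of the brightest probe differed by -0.26 ± 0.0811 (adjusted p = 0.397), in the same direction as its Cy5. Over all probes, 21.5% were called in Cy5 alone, in either direction. Over all genes, 4884 of 20898 were called in that channel, 38.6% of them higher. Among the 25 probes of the cascade, 6 were called lower and 0 higher in Cy5 alone, a count close to the share of all probes. They were the 3 of Mapk10, the brightest of Map3k12, the Map3k13 probe A_51_P306160 and the Map2k4 probe. Mapk8 and Mapk9 differed by 0.19 (adjusted p = 0.139) and -0.27 (adjusted p = 0.116) in that channel. Why the ratio and the Cy5 signal of the brightest Mapk10 probe part was not tested.

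**Figure D2:**
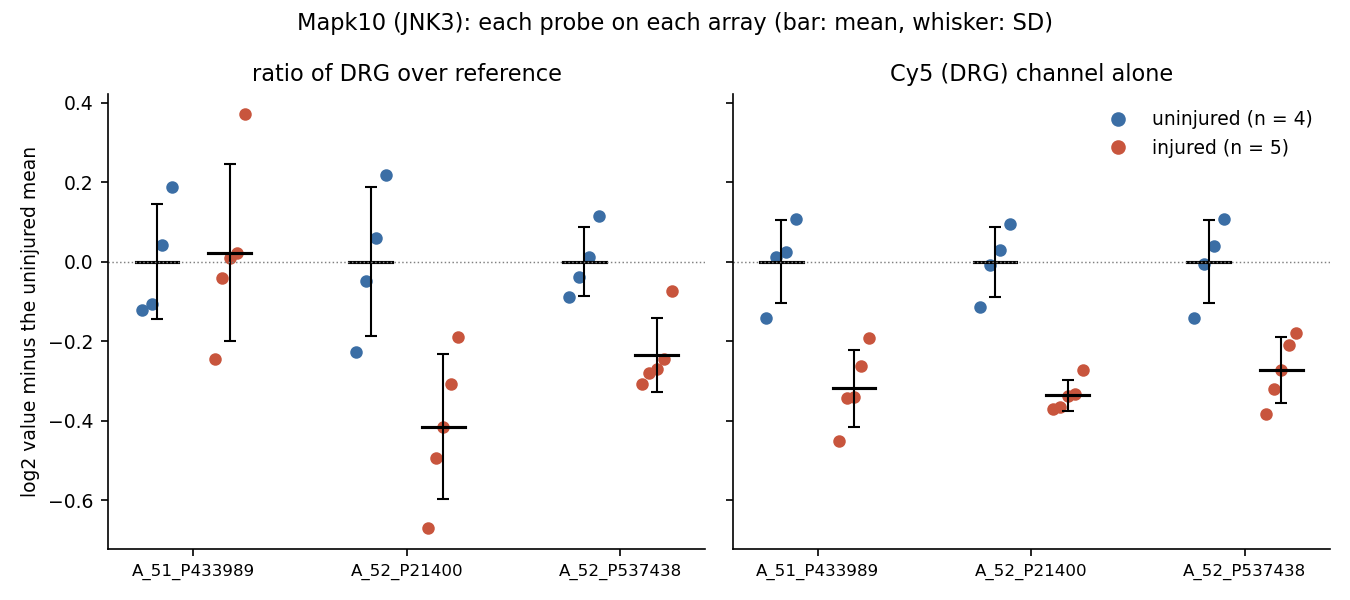
The 3 Mapk10 (JNK3) probes that passed the filter, on each array, as the ratio of DRG over reference (left) and in the Cy5 channel alone (right), each minus its uninjured mean on the log2 scale; points are arrays (blue, 4 uninjured; red, 5 injured), with mean and SD. The brightest probe, A_51_P433989, overlaps between groups as a ratio and does not in Cy5 alone.

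The scaffolds, which hold JNK with its upstream kinases, were not called. Mapk8ip1 (JIP1) had log2 ratios of 1.80, 2.22, 2.19 and 2.19 on uninjured 1 to 4 and of 2.13, 2.46, 1.93, 1.90 and 2.16 on injured 1 to 5 for its brightest probe (chromosome 2, 92234887 to 92234946, minus strand, mm7). Uninjured 1 stood apart from the other uninjured arrays, and it is the only uninjured array on the slide that holds both groups. Mapk8ip1 differed by 0.01 ± 0.126 (SE; limma adjusted p = 0.956), by -0.09 without uninjured 1 and by 0.45 with slide as a block (adjusted p = 0.107). Its second probe was lower on every injured array, from 3.40 to 3.58 on uninjured and from 3.22 to 3.38 on injured arrays. The difference was -0.17 (limma adjusted p = 0.0787 over all probes). With slide as a block the second probe differed by -0.30, in the direction opposite to the brightest probe.

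Mapk8ip2 (JIP2), a relative of JIP1 with the same domain order, had 1 probe (chromosome 15, 89545127 to 89545186, plus strand, mm7). It read 4.27, 4.11, 4.10 and 4.41 on uninjured 1 to 4 and 4.01, 4.31, 4.14, 4.38 and 4.72 on injured 1 to 5, with both the lowest and the highest value among the injured. The difference was 0.09 ± 0.133 (SE; adjusted p = 0.676 by limma), with a 95% interval of -0.20 to 0.38. Mapk8ip3 (JIP3), which is unrelated in sequence and links JNK to axonal transport motors, had a brightest probe at chromosome 17, 23080708 to 23080767 (minus strand, mm7). It read 2.05, 2.22, 2.12 and 2.21 on uninjured 1 to 4 and 2.24, 2.23, 2.15, 2.20 and 2.51 on injured 1 to 5, with injured 5 alone above the rest. The difference was 0.12 ± 0.0797 (SE; limma adjusted p = 0.325), and 0.06 without injured 5. The second Mapk8ip3 probe differed by -0.01.

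As ratios of the brightest probes, injured 5 was thus the highest injured array for Mapk10, Mapk8ip2 and Mapk8ip3 and the lowest for Mapk9. In Cy5 alone, scaled between arrays, it was the lowest of the 9 arrays for Mapk8ip3 and was below injured 1 for Mapk10 and Mapk8ip2. For Mapk9, injured 5 was the lowest in that channel as well. Its neuron marker mean, 0.21, was also the highest of the 9 arrays, and its median Cy5 signal the lowest. The differences between the changes of the 3 scaffolds were between -0.10 and -0.03, with 95% intervals that reached from -0.56 to 0.40.

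Over all 25 probes that passed the filter, 1 was called higher and 7 lower, against 23.4% of all probes called in either direction. Split by direction, the shares over all genes were 11.4% higher and 13.9% lower. The plot of changes by probe shows that the probes called lower were of Map3k12 (2 of 3), Map3k13 (1 of 3), Map2k4 (1 of 1), Mapk9 (1 of 3) and Mapk10 (2 of 3). Probes of one gene share their transcript in part and are not replicates of the condition. The files place probes on mm7 only, so exon and UTR positions are not given.

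**Figure D3:**
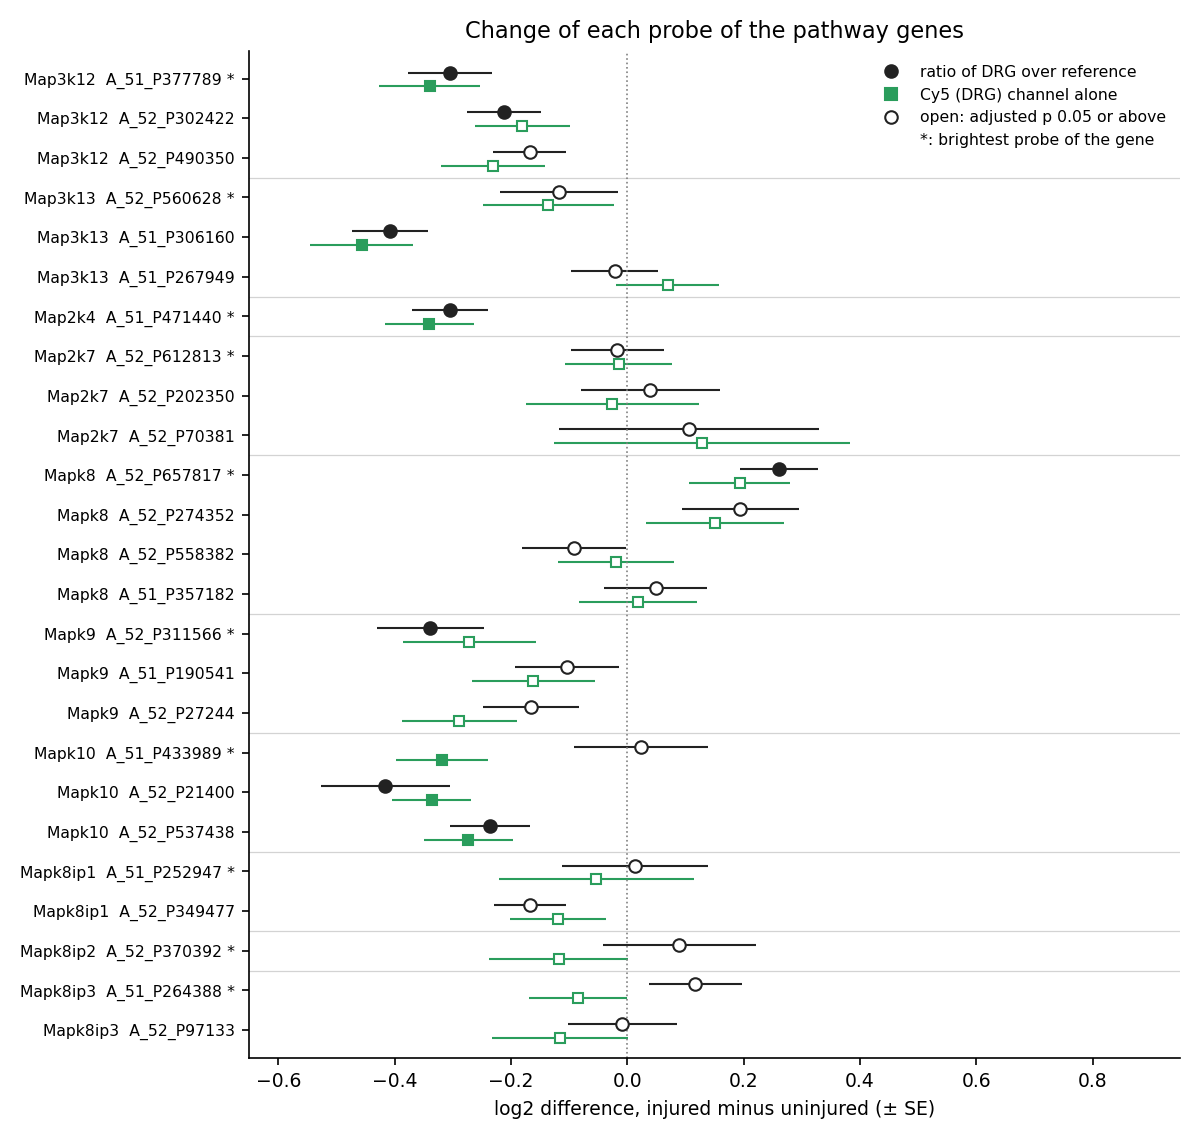
Log2 difference, injured minus uninjured, with its standard error, for the 25 probes of the 10 genes that passed the filter, as the ratio of DRG over reference (black circles) and in Cy5 alone (green squares). Filled symbols have an adjusted p under 0.05; a star marks the brightest probe of a gene. As ratios, 1 probe is called higher and 7 lower, and in Cy5 alone 0 are called higher and 6 lower. Over all probes, 23.4% are called as ratios and 21.5% in Cy5 alone.

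The neighbours of the cascade were taken as 4 lists with 44 genes, chosen with earlier results of these data known. Among all genes tested, 11.4% were called higher and 13.9% lower. Because of how the lists were chosen, their counts are not a test against that share. Of the other MAP3Ks, 3 of 11 tested were called higher and 5 lower, with a median log2 difference of 0.01 against 0.00 over all genes. Map3k5 (ASK1), a stress-activated MAP3K, fell by 0.75 (SE 0.129; limma adjusted p = 0.00184). The mixed-lineage kinases Map3k9 (MLK1) and Map3k10 (MLK2), which can also act on MKK4 and MKK7, differed by -0.38 and -0.37. Map3k6 (ASK2), Map3k20 (ZAK) and Map3k11 (MLK3) rose by 0.59, 0.39 and 0.25. The mixed-lineage family that holds DLK was thus called in both directions.

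Of the other MAP2Ks and MAPKs, 3 of 12 were called higher and 3 lower (median 0.06). Mapk14, or p38α, rose by 0.51 (SE 0.0612; limma adjusted p = 0.000199), and Mapk13 (p38δ) and Mapk7 (ERK5) rose by 0.41 and 0.38. Map2k6, a MAP2K for p38, differed by -0.50, Mapk12 (p38γ) by -0.38 and Map2k5, the MAP2K for ERK5, by -0.33. The p38 kinases thus differed in direction as the JNKs did on their brightest probes.

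Of the regulators of DLK and the other JNK scaffolds, 3 of 11 were called higher and 4 lower (median -0.15). The 3 genes called higher are upstream kinases or a scaffold of JNK signalling. Tnik rose by 0.97 (SE 0.0967; limma adjusted p = 5.89e-05) and its relative Map4k4 by 0.56 (adjusted p = 0.000574), both kinases that act above MAP3Ks, and the scaffold Sh3rf1 (POSH) by 0.34. Zdhhc17, which palmitoylates DLK, differed by -0.40, the JNK3 scaffold Arrb2 by -0.31 and Spag9 (JIP4), the closest relative of JIP3, by -0.21.

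Of the JNK substrates, 2 of 9 tested were called higher and 2 lower (median -0.11). Jun itself, whose product is the transcription factor that JNK phosphorylates and that also drives its own gene, rose from 0.13 to 1.90, a difference of 1.77 ± 0.230 (SE; limma adjusted p = 0.000336). Its relative Jund rose by 0.58, while the ubiquitin ligase Itch and the transcription factor Atf2 differed by -0.25 and -0.20. The rise of Jun was larger than any change of the 10 genes upstream. With slide as a block, 3 of the genes on these 4 lists were called, against 25 without it. The share over all genes was 5.67% with slide as a block and 25.3% without it.

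**Figure D4:**
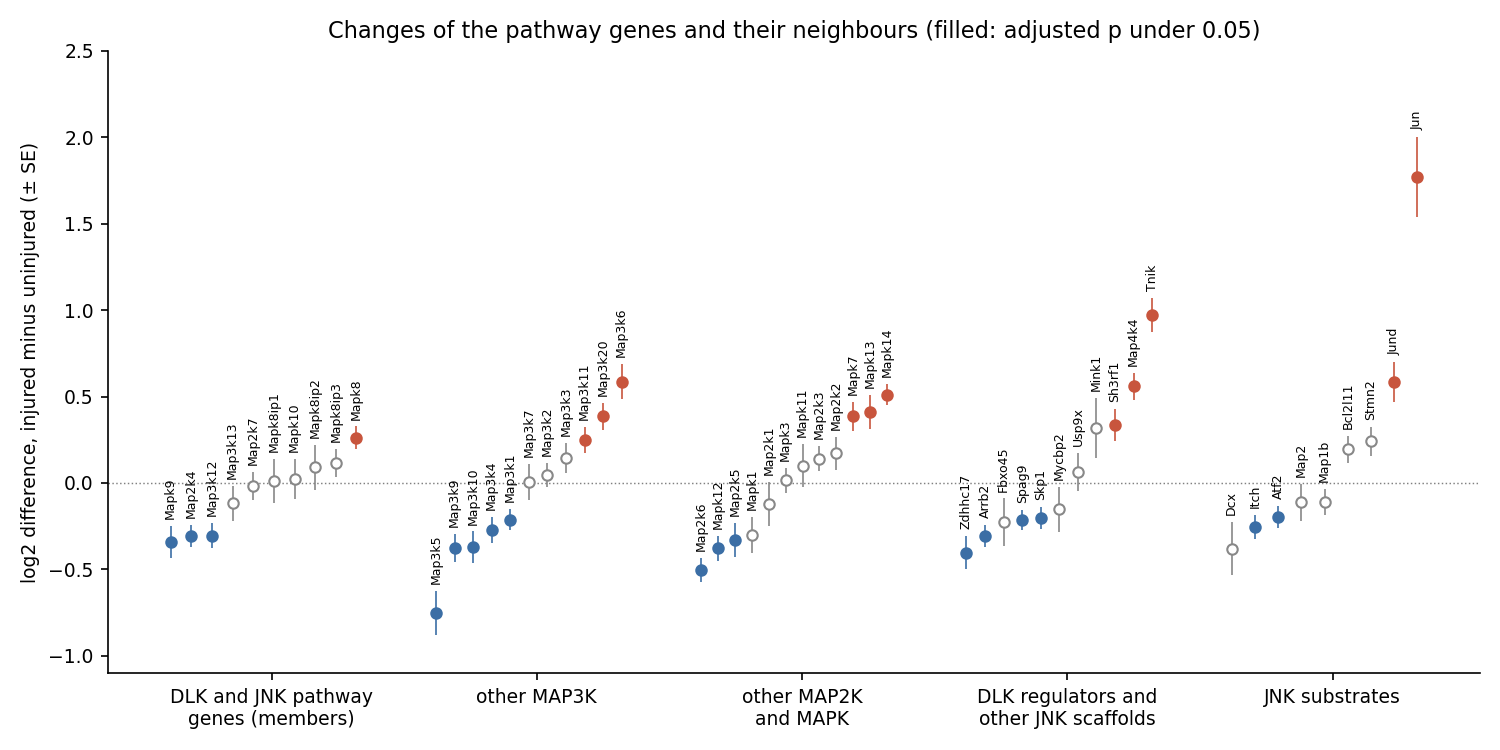
Log2 difference, injured minus uninjured, with its standard error, for the 10 genes of the cascade and for the 43 tested genes of the 4 neighbouring lists, sorted within each list. Filled points have an adjusted p under 0.05 (red, higher; blue, lower). Jun, at 1.77, lies above all other genes plotted, and the 10 genes of the cascade lie between -0.34 and 0.26.

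How each gene's difference moved with the processing is shown in the plot of changes by processing. Map3k12, Map3k13, Map2k4, Mapk8 and Mapk9 kept their direction throughout. By contrast, Mapk10, Map2k7 and each scaffold changed sign under at least 1 of the alternatives plotted.

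**Figure D5:**
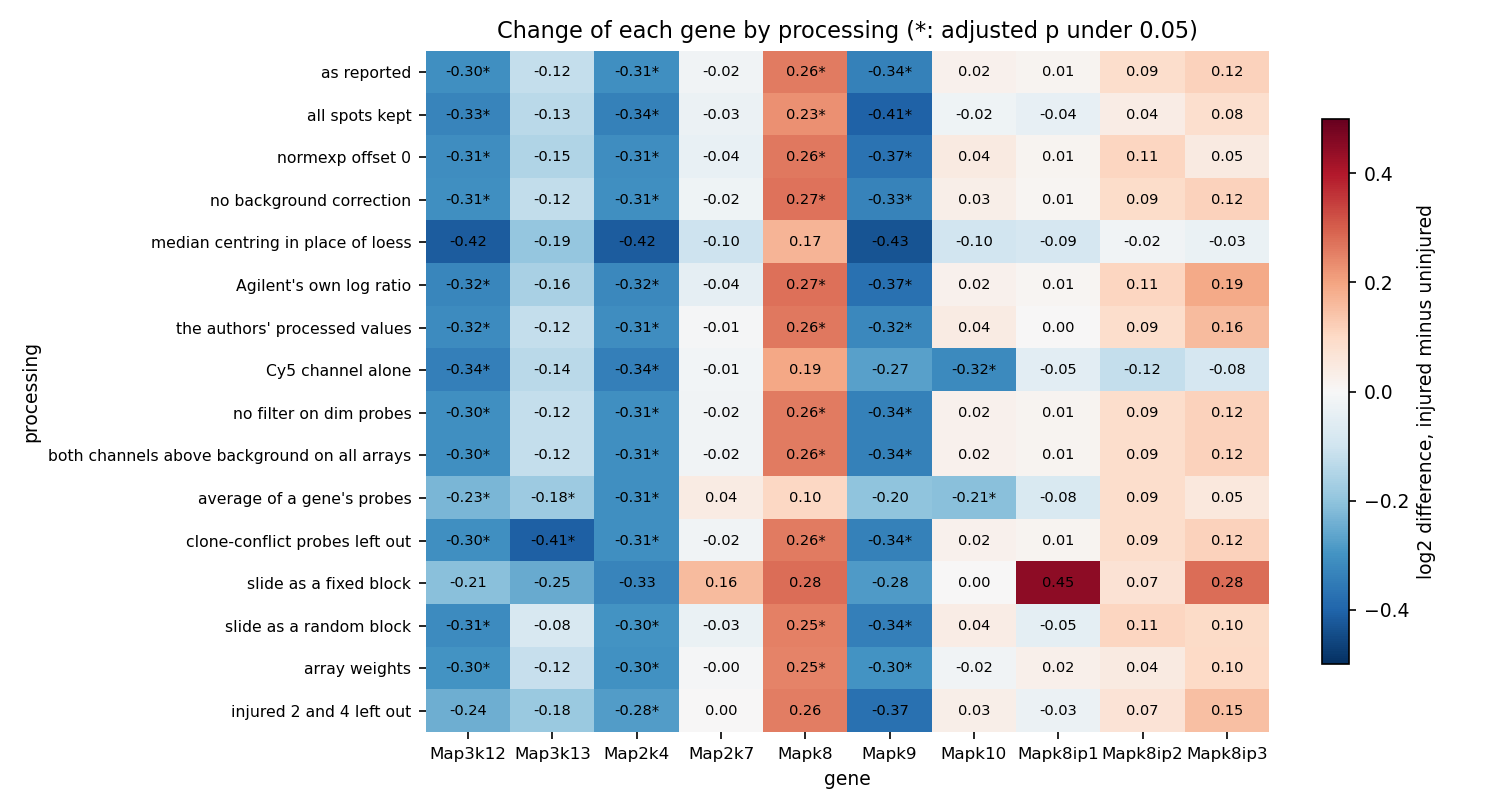
Log2 difference, injured minus uninjured, of each of the 10 genes (columns) under each processing (rows), with a star for an adjusted p under 0.05 and n/a where no value was given. Map3k12, Map3k13, Map2k4 and Mapk9 are below 0 and Mapk8 is above 0 in every row. Mapk10, Map2k7 and the scaffolds change sign between rows.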

How the data were processed

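Whole L3/L4 DRG RNA was measured on 9 two-channel Agilent arrays (design 014868, build mm7). The deposited intensity values are, per the file headers, mean spot and median local background signals from Agilent Feature Extraction 10.5.1.1. The deposited log10 ratios in the same files are Agilent's own, and the table of processed values holds the authors' log2 ratio of sample over reference, normalized within each array. Both were used as alternatives only.

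Spots flagged as non-uniform or as outliers were left out. Background was corrected with normexp (offset 50), followed by loess within each array (limma 3.58.1, R 4.3.3). Repeat spots were averaged. Probes with Cy5 well above background on at least 4 arrays were kept (31186), and the brightest stood for its gene (20898 genes). Probes were named by RefSeq accession, then by the symbol in the file or an older name.

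Groups were compared with limma, Benjamini-Hochberg adjusted, and single differences also with an exact permutation test over the 126 splits. The 8 pairs of related genes were adjusted together. Their 95% intervals allow unequal variances. Genes and lists were chosen with earlier results of these data known. All 10 genes with every probe are named, and per list up to 3 called genes at each end, and Jun. Alternatives were all spots kept, an offset of 0, no background correction, median centring, Agilent's ratio, the authors' values, Cy5 alone, other filters, averaged probes, slide as a block, array weights and leaving out each array. The clone-name check, probe values per channel and with slide as a block, and leaving out injured 2 and 4 were added once values had been seen. The number of arrays limits the precision. Promoters were searched in Python 3.11.15.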

Additional observations from a re-analysis of the deposited data

Results flagged for a closer look

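Within a group, 2 values stood far from the others. For Mapk8ip1, uninjured 1 read 1.802 on the log2 ratio scale against 2.193 to 2.217 on the other uninjured arrays, a gap of 0.943 of the group's range. For Mapk8ip3, injured 5 read 2.507 against 2.153 to 2.238 on the other injured arrays, a gap of 0.761 of the range. These are 2 of 20 groups tested, where chance alone sets apart about 1 in 20. In Cy5 alone, injured 5 was the lowest of all arrays for the brightest Mapk8ip3 probe.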

How the results depend on the processing

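Map3k12, Map2k4, Mapk8 and Mapk9 kept their direction under all alternatives run, and so did Map3k13, which was not called as reported. The count of 4 called genes was 0 with median centring and with slide as a fixed block and 1 (Map2k4) without injured 2 and 4. It was 3 to 4 when each array was left out in turn. The set of called genes also changed. With averaged probes, 0 were called higher and 4 lower (Map3k12, Map3k13, Map2k4 and Mapk10), and Mapk8 and Mapk9 were not called. Over all genes, 5216 of 20898 were called with averaged probes, 44.8% of them higher. In Cy5 alone, 0 were called higher and 3 lower (Map3k12, Map2k4 and Mapk10). Over all genes, 4884 of 20898 were called in that channel, 38.6% of them higher. In all, 2657 genes were called with median centring (36.0% of them higher), 1185 with slide as a block (53.1% higher) and 3008 without injured 2 and 4, against 5282 (45.2% higher). The 25 calls on the neighbouring lists became 13, 3 and 14 under these, and 17 to 25 when each array was left out. The pair differences called were 3 in Cy5 alone and 0 otherwise. The cause was not tested.

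Changes that did not pass the test as reported turned sign as follows under the alternatives named. In Cy5 alone, Mapk10 was at -0.3185 and was called there (limma adjusted p = 0.01445). That channel put Mapk8ip1 at -0.0536, Mapk8ip2 at -0.1181 and Mapk8ip3 at -0.0849. It also put Mapk8ip1 minus Mapk8ip2 at 0.0644, Mapk8ip1 minus Mapk8ip3 at 0.0313 and Mapk9 minus Mapk10 at 0.0472. With median centring, Mapk10 was at -0.0976, Mapk8ip1 at -0.0856, Mapk8ip2 at -0.018, Mapk8ip3 at -0.0345 and Mapk8ip2 minus Mapk8ip3 at 0.0165. With averaged probes, Mapk10 was at -0.2095 and was called there (limma adjusted p = 0.03892). Averaging put Map2k7 at 0.0428, Mapk8ip1 at -0.077, Mapk8ip2 minus Mapk8ip3 at 0.0353 and Mapk9 minus Mapk10 at 0.0068. With all spots kept, Mapk10 was at -0.0217 and Mapk8ip1 at -0.04, and array weights put Mapk10 at -0.018. Slide put Map2k7 at 0.1587 as a fixed block and also within the slide that holds both groups, and Mapk8ip1 at -0.0486 as a random block. An offset of 0 put Mapk8ip2 minus Mapk8ip3 at 0.062. Leaving out injured 2 and 4 put Map2k7 at 0.0037 and Mapk8ip1 at -0.0281, and leaving out the probes with another gene's clone put Map3k12 minus Map3k13 at 0.1038. When each array was left out in turn, Map2k7 ranged from -0.0652 to 0.0304, Mapk10 from -0.0639 to 0.0903, Mapk8ip1 from -0.0865 to 0.0681, Mapk8ip2 from -0.0128 to 0.1658, Mapk8ip1 minus Mapk8ip2 from -0.1927 to 0.0157 and Mapk8ip2 minus Mapk8ip3 from -0.0896 to 0.0418.

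No paired analysis was possible because no replicate numbers are given in the labels. Signal over background limited Map2k7, Mapk8 and Mapk10 probes that were above background on 0 arrays.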
